A study of Mus musculus with 1279 samples.

Results

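The genes described here are 10 members of the Notch pathway, taken by their symbols from a count table of single cells of the adult mouse heart that holds 46517 genes. They are the receptors Notch1, Notch2 and Notch3, the ligand Jag1, the transcriptional repressors Hes1, Hey1, Hey2 and Heyl, the feedback regulator Nrarp and the Deltex family member Dtx3. All 10 were found in the table, each at a row of its own.

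Notch receptors are single-pass proteins that are cleaved when they meet a ligand of the Jagged or Delta-like family on a neighbouring cell. The released intracellular part enters the nucleus, joins the DNA-binding protein RBPJ and switches on target genes, among which the Hes and Hey repressors and Nrarp are well known. Notch3 is known as a receptor of vascular smooth muscle cells and pericytes, the mural cells that wrap blood vessels.

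The table holds 1279 cells, each deposited as a sample of its own and sequenced by Smart-seq2, a plate method that counts reads along whole transcripts without molecular identifiers. Adult male mice of 10 to 20 weeks, all on a C57Bl6/J background, came in 4 strains. The C57BL6 mice (581 cells) carried no reporter, and their cells were sorted with antibodies against PDGFRα or PDGFRβ. The others carried a fluorescent reporter under the control of Pdgfrb (PdgfrbGFP, 364 cells), Cspg4 (Cspg4dsRED, 12.7% of all cells) or Acta2 (Acta2GFP, 13.4%), so that each sort favoured cells that express its marker, and elastase was added when the Acta2GFP hearts were dissociated. Cells with CD31 on their surface were excluded. The study had placed the cells in 8 clusters by expression, and these labels are used here. Clusters 1 to 5 are fibroblasts (926 cells), cluster 1 being the one that the study located to the valves, and clusters 6 to 8 are mural cells (353 cells). Since the clusters were made from the same counts, a gene that helped to make them would differ between them.

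Reads were summed over the cells of a strain within a cluster or class wherever at least 3 cells were present, and a level is given as counts per 1e+06 counts (CPM) of that sum. The strain was the replicate. Each strain was sorted in its own way and sequenced on its own plates, so in differences between strains the strain, sort and plate cannot be told apart. The labels name no animal, and p-values measure only the spread between these sums, which may be technical. Cells held 46268 to 1302397 counts (median 274504). Fibroblast markers were lower in mural cells for 5 of 5 genes, and pericyte markers higher for 4 of 4. In clusters 6, 7 and 8 the 4 smooth muscle markers summed to 11449.5 ± 1759, 12725 ± 2651 and 1510.5 ± 1728 CPM (SD over strains), and the 4 pericyte markers to 269.1 ± 347, 887 ± 756 and 11077 ± 4830.4 CPM.

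Promoter sequences are shown for Notch3, Hey2 and Nrarp, because among the 10 genes these had the largest differences between mural cells and fibroblasts. The 250 bases before the RefSeq start of each gene (GRCm38.p6) are given 5′ to 3′ on the strand of the gene. They lie at chr17:32166891-32167140 on the minus strand for Notch3, at chr10:30842784-30843033 on the minus strand for Hey2 and at chr2:25180508-25180757 on the plus strand for Nrarp. Capitals mark TGGGAA or, on the other strand, TTCCCA, the core of the sequence that RBPJ binds.

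Notch3: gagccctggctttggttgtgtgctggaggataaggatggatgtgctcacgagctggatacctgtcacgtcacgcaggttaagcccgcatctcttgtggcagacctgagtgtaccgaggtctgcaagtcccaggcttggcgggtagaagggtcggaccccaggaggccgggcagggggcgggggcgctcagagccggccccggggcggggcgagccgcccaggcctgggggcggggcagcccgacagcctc

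Hey2: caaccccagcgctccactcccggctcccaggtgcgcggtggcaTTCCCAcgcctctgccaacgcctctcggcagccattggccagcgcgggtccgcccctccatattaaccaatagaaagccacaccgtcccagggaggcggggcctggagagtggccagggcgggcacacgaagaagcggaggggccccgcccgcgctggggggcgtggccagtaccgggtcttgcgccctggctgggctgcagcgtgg

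Nrarp: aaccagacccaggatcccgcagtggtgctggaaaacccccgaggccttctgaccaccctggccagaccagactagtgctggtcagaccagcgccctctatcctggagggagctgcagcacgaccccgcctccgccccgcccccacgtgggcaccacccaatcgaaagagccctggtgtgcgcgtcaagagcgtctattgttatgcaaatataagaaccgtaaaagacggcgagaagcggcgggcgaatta

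The Hey2 window held 1 match, near its 5′ end, and the flanking base completed the longer form GTGGGAA on the opposite strand. The Notch3 and Nrarp windows held none. Windows were found for 6 of the 10 genes, and those of Notch1, Notch2 and Jag1 held no match either. Of 32851 mouse promoter windows of this length, 21.6% held TGGGAA on either strand and 5.42% held GTGGGAA, so a single match is common, and these letters say nothing of whether the factor binds. No window was found for Hes1, Hey1, Heyl and Dtx3.

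The first comparison asked which of the genes differ between mural cells and fibroblasts. Of the 10 genes, 6 passed the test, and all 6 were higher in mural cells. They were the receptor Notch3, the ligand Jag1, the targets Hey2, Heyl and Nrarp, and Dtx3. Across all 15117 genes tested, 896 passed (5.93%), with 371 higher in mural cells (2.45%) and 525 lower (3.47%). All 10 genes were tested, but Hey2 and Nrarp reached the minimum level in only 3 of 4 fibroblast sums and so were kept by their mural sums. Without these 2, 4 of 8 passed, with a median log2 fold change of 1.90 where that of all genes tested was 0.02. The 10 genes were chosen with earlier results of these data known. These counts and medians therefore describe the chosen genes and are no test of the pathway. The test throughout was the quasi-likelihood F test of edgeR on the summed counts, with p adjusted by the Benjamini-Hochberg method over all genes tested and a threshold of 0.05. Values per strain are given in the order C57BL6, PdgfrbGFP, Cspg4dsRED and Acta2GFP.

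Of the receptors, Notch3 separated the classes most widely. Mural levels were 669, 545, 597 and 664 CPM, and fibroblast levels 22.7, 8.89, 24.9 and 29.5 CPM. The groups did not overlap, and the 4 mural sums lay close together. The log2 fold change was 4.89 ± 0.38 (SE), a fold change of 29.6 (edgeR adjusted p = 0.000118), and it passed in all 11 alternative fits, where it ran from 4.69 to 5.03.

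Notch1, a receptor well known from endothelial and blood cells, had mural levels of 335, 307, 182.1 and 101.4 CPM and fibroblast levels of 46.7, 14.4, 106.5 and 80.6 CPM. It was higher in mural cells in 4 of 4 strains, but the groups overlapped, since the Acta2GFP mural level lay below the Cspg4dsRED fibroblast level. Its log2 fold change of 1.97 ± 0.58 did not pass (edgeR adjusted p = 0.0828). It passed with DESeq2 (adjusted p = 0.0123) and after each cell was thinned to 50000 counts (edgeR adjusted p = 0.0195).

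Notch2, a receptor of many cell types, did not separate the classes. Mural levels were 134.004, 43.7, 38.5 and 70.1 CPM and fibroblast levels 179.4, 76.5, 40.4 and 60.6 CPM, so that it was higher in mural cells in 1 of 4 strains. With a log2 fold change of −0.33 ± 0.55, it did not pass (edgeR adjusted p = 0.863).

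Jag1, a ligand of the Jagged family, had mural levels of 251.9, 174.7, 139.7 and 82.8 CPM, all above the fibroblast levels of 37.1, 18.8, 21.5 and 18.03 CPM. The groups did not overlap, and C57BL6 was highest and Acta2GFP lowest in both. Its log2 fold change of 2.78 ± 0.43 passed (edgeR adjusted p = 0.00487), as it did in all 11 alternative fits.

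Nrarp, which feeds back on the Notch transcription complex, had the largest difference of the 10 genes. Mural levels were 107.5, 243.5, 97.5 and 90.1 CPM, and fibroblast levels were 0.0723, 0.552, 0.379 and 0.536 CPM, which rest on 12, 40, 4 and 26 reads. The groups lay far apart, at a log2 fold change of 8.50 ± 0.83 (edgeR adjusted p = 0.000461), and all 11 alternative fits passed. Nrarp (chr2:25180758-25183339) shares 2051 of its 2582 exon bases with Gm38287 on the opposite strand. The strand setting of the counting is not given in the sources used here, and Gm38287 took 85.7% as many counts as Nrarp, with more than Nrarp in 0 cells, so reads of the pair cannot be told apart.

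Hey2, a repressor known from arterial and cardiac cells, had mural levels of 41.9, 36.1, 92.6 and 129.7 CPM and fibroblast levels of 8.85, 0.124, 1.80 and 1.09 CPM. The groups did not overlap, and the C57BL6 fibroblasts were the highest of their class. Its log2 fold change of 4.64 ± 1.12 passed (edgeR adjusted p = 0.0369), and ran from 3.98 without Acta2GFP to 6.53 without C57BL6 over the 11 alternative fits. The call was lost without PdgfrbGFP (adjusted p = 0.053), Cspg4dsRED (adjusted p = 0.139) or Acta2GFP (adjusted p = 0.192).

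Heyl, a related repressor, was high in both classes. Mural levels were 1064, 811, 589.7 and 828 CPM and fibroblast levels 288.05, 303, 307 and 505 CPM, and the groups did not overlap. At a log2 fold change of 1.26 ± 0.28 it passed (edgeR adjusted p = 0.0271). It no longer passed without C57BL6 (adjusted p = 0.189), PdgfrbGFP (adjusted p = 0.134), Cspg4dsRED (adjusted p = 0.0547) or Acta2GFP (adjusted p = 0.0604).

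Hes1, a widely used Notch target gene, had mural levels of 476, 420.1, 346 and 267.8 CPM, all above the fibroblast levels of 242.4, 177.2, 110.5 and 150.2 CPM. Its log2 fold change of 1.16 ± 0.33 did not pass (edgeR adjusted p = 0.0727). It passed with the strain as a replicate block (adjusted p = 0.0402) and with DESeq2 (adjusted p = 0.00613). Hey1 had mural levels of 106.6, 94.8, 25.9 and 29.5 CPM and fibroblast levels of 18.2, 12.1, 0.379 and 44.4 CPM. These overlapped, the Acta2GFP fibroblasts lying above the Acta2GFP mural cells, and a log2 fold change of 1.83 ± 1.00 did not pass (edgeR adjusted p = 0.425).

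Dtx3, of the Deltex family of ubiquitin ligases, had mural levels of 1049, 762, 417 and 389.8 CPM and fibroblast levels of 196.9, 114.1, 155.5 and 137.8 CPM. The groups did not overlap. Its log2 fold change of 2.15 ± 0.38 passed (edgeR adjusted p = 0.00908), and the call was lost without PdgfrbGFP (adjusted p = 0.0698).

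**Figure D1:**
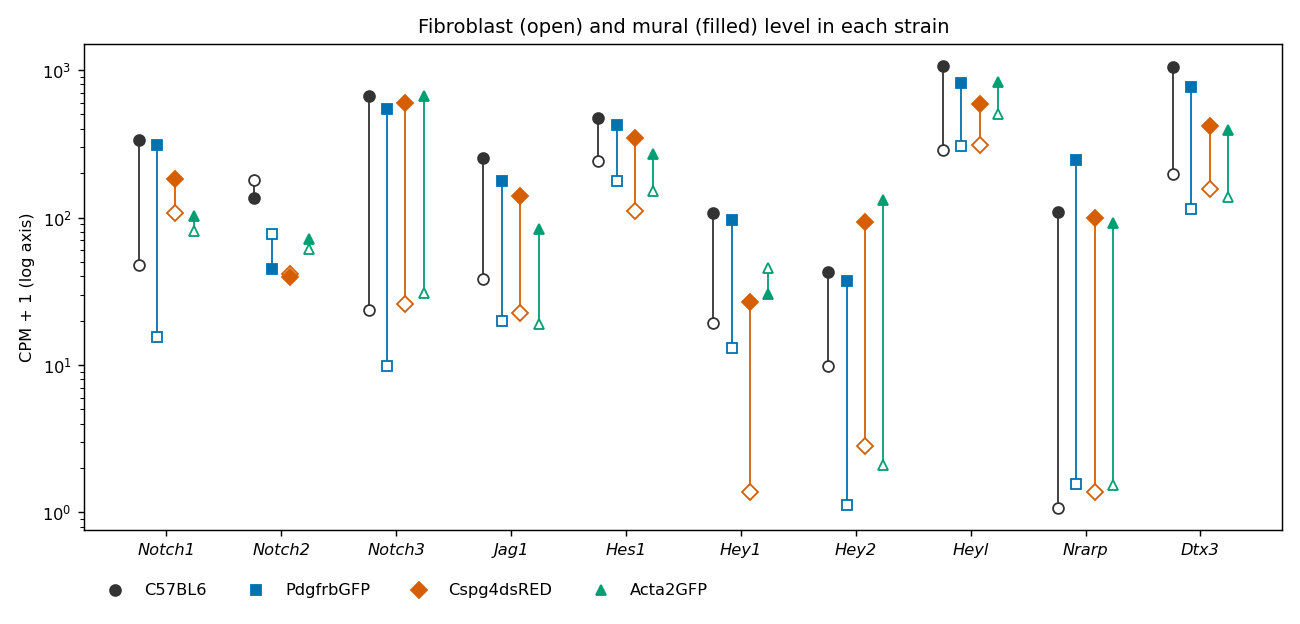
Level of the 10 genes in each strain, as CPM + 1 on a log axis, with the fibroblast sum as an open and the mural sum as a filled symbol joined by a line. Nrarp, Notch3 and, outside C57BL6, Hey2 have the longest lines, and Notch2 has lines of both directions. The open and filled symbols of Notch3, Jag1, Hes1, Hey2, Heyl, Nrarp and Dtx3 do not overlap. The share of all genes without such overlap is not given here.

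Markers of other cells were measured in the same sums. Endothelial markers, 7 genes from Pecam1 to Erg with none at 0 in either class, summed to 3.47 to 63.8 CPM over the mural sums and to 22.9 to 187.6 CPM over the fibroblast sums, and of the 6 tested none was called. Cardiac muscle markers summed to 309.6 to 1024 CPM in mural cells against 23.6 to 102.3 CPM in fibroblasts, with 2 of 9 called higher in mural cells. This list includes Pln, which smooth muscle also uses, and Actc1. The study reports Actc1 as enriched in a population of smooth muscle cells from heart and lung. Immediate early genes, which respond to dissociation, summed to 4785 to 7170.1 CPM against 6736 to 14514 CPM, with 1 of 8 called lower in mural cells. The part of the cardiac muscle and immediate early genes in the differences above was not tested. The mural sums also differed in their mix of clusters, cluster 8 making up 89.2%, 92.97%, 21.2% and 29.4% of the mural cells of the 4 strains. Pericyte markers stood at 11213, 13729.7, 2509 and 1652 CPM in these sums, and 6 of the 10 genes, Dtx3, Jag1, Notch1, Hes1, Hey1 and Nrarp, too were higher in C57BL6 and PdgfrbGFP than in the other 2 strains, although Hes1 and Nrarp were lower in cluster 8 than in cluster 7. The part of this mix in the differences between strains was not tested.

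The make-up of the receptors differed between the classes when levels were set per kilobase of exon. On this scale Notch3 made up 76.5% ± 8.41 of the summed level of the 4 Notch receptors in mural cells and 17.04% ± 6.46 in fibroblasts (SD, n = 4 strains). Notch2 made up 6.30% ± 2.92 in mural cells and 51.4% ± 23.7 in fibroblasts. Notch1 took 15.9% ± 6.65 and 28.1% ± 19.3, and its ranges overlapped. Notch4, which is known from endothelial cells and is not among the 10 genes, took 1.34% ± 1.16 and 3.41% ± 3.03. Among the 4 repressors Hes1 and Heyl led in both classes. Hes1 made up 48.4% ± 6.26 of their summed level per kilobase in mural cells and 52.5% ± 11.3 in fibroblasts, and Heyl 42.1% ± 5.26 and 43.9% ± 10.7. Hey2 took 4.71% ± 3.32 in mural cells and 0.385% ± 0.466 in fibroblasts.

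**Figure D2:**
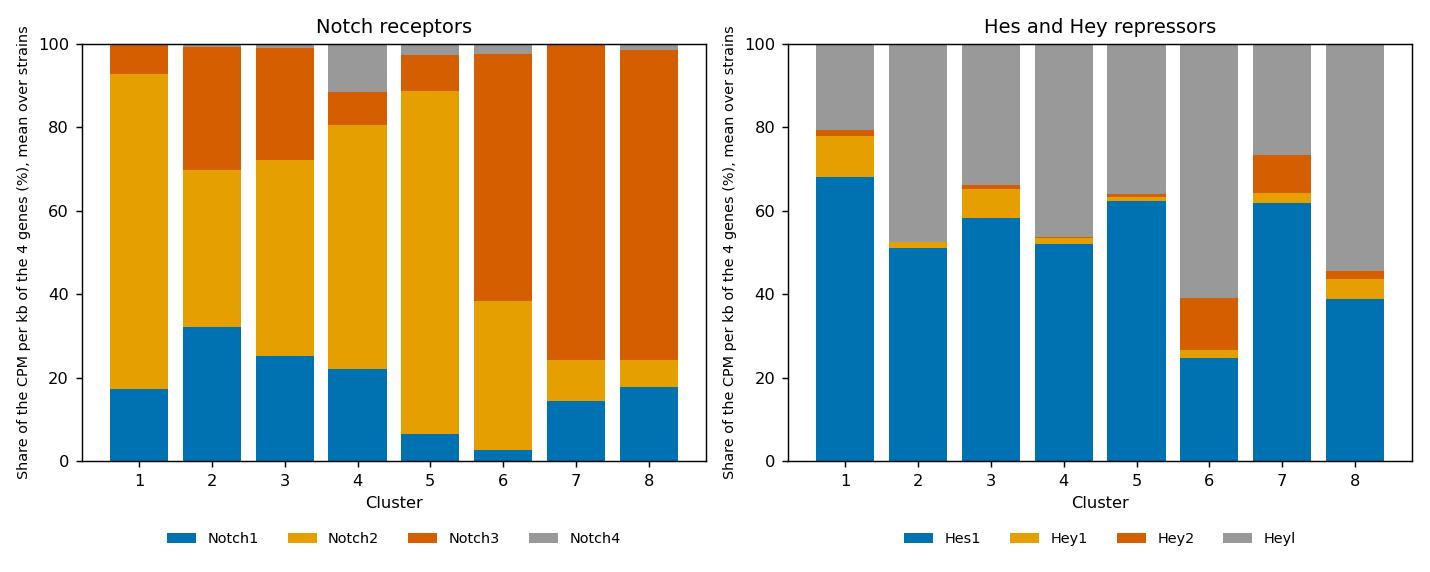
Share of each gene in the CPM per kilobase of the 4 Notch receptors (left) and of the 4 repressors (right), as the mean over strains for each cluster. Notch3 takes the largest share of the receptors in clusters 6, 7 and 8 and Notch2 in clusters 1 to 5, while Hes1 and Heyl together take most of the repressors in every cluster.

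The mural clusters were then set against each other. Between cluster 8 and cluster 7, which 3 strains shared, none of the 10 genes passed edgeR, none passed DESeq2, and Hey2 alone had an unadjusted p under 0.05, as did 6.88% of all genes tested. Across all genes 23 of 11867 passed (0.194%), 0.0843% of those tested being higher in cluster 8 (10 genes) and 0.11% lower (13 genes), a split that became 12 and 33 genes with the size factors of DESeq2. With 3 strains a side, the differences below were not distinguishable from the spread between strains.

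Hey2 and Nrarp were lower in cluster 8 than in cluster 7 in 3 of 3 strains. Hey2 stood at 241.9, 170.2 and 154.8 CPM in cluster 7 (PdgfrbGFP, Cspg4dsRED and Acta2GFP) and at 13.5, 9.60 and 71.2 CPM in cluster 8 of the same strains. The groups did not overlap, and the log2 fold change of −2.65 ± 1.02 had an unadjusted p of 0.0227 and an edgeR adjusted p of 0.537. The PdgfrbGFP value of cluster 7 came from 1 of its 9 cells, while 61.3% of the 75 Cspg4dsRED cells and 78.8% of the 33 Acta2GFP cells had a Hey2 read. Nrarp stood at 437, 166.8 and 149.95 CPM in cluster 7 and at 222.2, 48.4 and 8.21 CPM in cluster 8, which overlapped (log2 fold change −1.59 ± 1.03, edgeR adjusted p = 0.938). Cardiac muscle markers, 9 genes with none at 0 in either cluster, summed to 1904, 1365 and 1350.0 CPM in cluster 7 against 160.3, 374 and 304 CPM in cluster 8 of those strains, with 1 of 9 called lower in cluster 8, Pln, a gene that smooth muscle also uses. Their part in the Hey2 and Nrarp values was not tested.

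Hes1 stood at 908, 510.4 and 373 CPM in cluster 7 against 367, 316 and 99.3 CPM in cluster 8, again lower in 3 of 3 strains (log2 fold change −1.34 ± 0.64, edgeR adjusted p = 0.748). Immediate early genes summed to 12233, 11331 and 6935 CPM in cluster 7 against 3966, 2312 and 4326 CPM in cluster 8 of those strains, with 1 of 8 called lower, and their part in the Hes1 values was not tested.

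Notch3, Heyl and Dtx3 were higher in cluster 8 in 3 of 3 strains. Notch3 stood at 588, 1041 and 912 CPM in cluster 8 against 159.9, 745 and 615 CPM in cluster 7 (log2 fold change 0.73 ± 0.56, edgeR adjusted p = 0.971). Heyl stood at 822, 1063 and 1215 CPM against 707, 466 and 625 CPM, without overlap (log2 fold change 0.69 ± 0.45, edgeR adjusted p = 0.938). Dtx3 stood at 792, 1065 and 459 CPM against 492, 344 and 364 CPM (log2 fold change 0.83 ± 0.51, edgeR adjusted p = 0.914).

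Jag1 and Notch1 were higher in cluster 8 in 2 of 3 strains, the exception being Acta2GFP for both. Jag1 stood at 193.8, 391 and 81.5 CPM in cluster 8 and at 0.981, 100.9 and 95.7 CPM in cluster 7 (log2 fold change 1.74 ± 1.17, edgeR adjusted p = 0.945), reaching the minimum level in 2 of 3 sums of cluster 7. Notch1 stood at 328, 541 and 98.7 CPM and at 123.6, 150.2 and 118.3 CPM (log2 fold change 1.20 ± 0.71, edgeR adjusted p = 0.9). For Hey1 the log2 fold change was 0.19 ± 1.35 and for Notch2 0.48 ± 1.11, and both changed sign under other settings. The Acta2GFP sum of cluster 8, from 15 cells, stood apart from the other strains in its markers. Pericyte markers stood there at 4057 CPM against 12208 to 15046 CPM in the others, smooth muscle markers at 4033 CPM against 201.1 to 1169.8 CPM and fibroblast markers at 3334 CPM against 959.5 to 1370.3 CPM. Their part in its Notch1, Jag1 and Hey2 values was not tested.

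Cluster 6, set against clusters 7 and 8 together in C57BL6, Cspg4dsRED and Acta2GFP, had the lowest Notch3 of the mural clusters. Its levels were 50.9, 76.7 and 85.8 CPM against 752, 825 and 722 CPM in clusters 7 and 8, and the groups did not overlap. The log2 fold change of −3.29 ± 0.63 did not pass (edgeR adjusted p = 0.152), and of 12117 genes only 4 passed (0.033%), while 4 of the 10 members and 5.74% of all genes tested had an unadjusted p under 0.05. Notch1, Hey1 and Nrarp reached the minimum level in only 2, 2 and 1 of the 3 sums of cluster 6 and were kept by clusters 7 and 8, and without them it was 2 of 7 members, Notch3 and Dtx3. Notch3 passed in 3 of 8 alternative fits, with the strain as a replicate block (log2 fold change −3.36, adjusted p = 0.00289), without a filter (adjusted p = 0.00541) and with thinned cells (adjusted p = 0.0363). It did not pass with DESeq2 (adjusted p = 0.0887) or with any strain left out (adjusted p from 0.0864 to 0.409).

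Notch1 stood at 0, 13.2 and 2.16 CPM in cluster 6 against 380.0, 256.3 and 111.2 CPM in clusters 7 and 8, also without overlap. A log2 fold change of −5.43 ± 1.47 did not pass (edgeR adjusted p = 0.412). It passed in 3 of 8 alternatives, with the strain as a replicate block (adjusted p = 0.0413), without a filter (adjusted p = 0.0175) and with DESeq2 (adjusted p = 0.00542), but with a filter Notch1 and Nrarp were tested only through the group where they are high. Nrarp was at 0, 13.05 and 0 CPM against 121.9, 134.7 and 99.1 CPM (log2 fold change −4.62 ± 1.92, edgeR adjusted p = 0.722). Dtx3 was at 101.9, 139.1 and 306 CPM against 1176, 539 and 398 CPM (log2 fold change −1.77 ± 0.71, edgeR adjusted p = 0.69). All 4 genes were lower in cluster 6 in 3 of 3 strains.

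Cluster 6 held 3 cells of C57BL6, 33 of Cspg4dsRED and 3 of Acta2GFP, and its sums did not look alike. Fibroblast markers stood at 12491, 3223 and 3108 CPM in the 3 sums, so that the C57BL6 value lay within the range of the fibroblasts (11069 to 13699.6 CPM), although the cells are labelled mural. Endothelial markers stood at 3.92, 82.9 and 277.5 CPM in the 3 sums, the Acta2GFP value being the highest of any cluster. Without C57BL6 the log2 fold change of Notch3 was −3.09 (edgeR adjusted p = 0.0864) and that of Notch1 −4.45 (adjusted p = 0.41). Without clusters 1 and 6, Notch3, Jag1, Hey2, Heyl, Nrarp and Dtx3 passed between mural cells and fibroblasts, and so did Hes1 (edgeR adjusted p = 0.0417). The share of all genes that passed in that fit is not given here, so nothing is read from the number of members.

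Heyl and Hey2 did not separate cluster 6 from the other mural cells. Heyl stood at 343, 503 and 747 CPM against 1161, 628 and 836 CPM (log2 fold change −0.57 ± 0.54, edgeR adjusted p = 0.994), and Hey2 at 96.98, 15.3 and 179.2 CPM against 34.5, 126.6 and 124.8 CPM (log2 fold change 0.21 ± 1.17, edgeR adjusted p = 0.994). Per kilobase Hey2 made up 12.4% ± 9.69 of the 4 repressors in cluster 6, 9.09% ± 0.859 in cluster 7 and 1.95% ± 2.07 in cluster 8. Hes1 stood at 21.6, 92.3 and 198.6 CPM against 536, 458 and 274.7 CPM, without overlap (log2 fold change −1.81 ± 0.87, edgeR adjusted p = 0.917). Jag1 stood at 93.1, 48.9 and 3.78 CPM against 273.2, 179.6 and 90.6 CPM, which overlapped (log2 fold change −1.92 ± 1.18, edgeR adjusted p = 0.994).

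**Figure D3:**
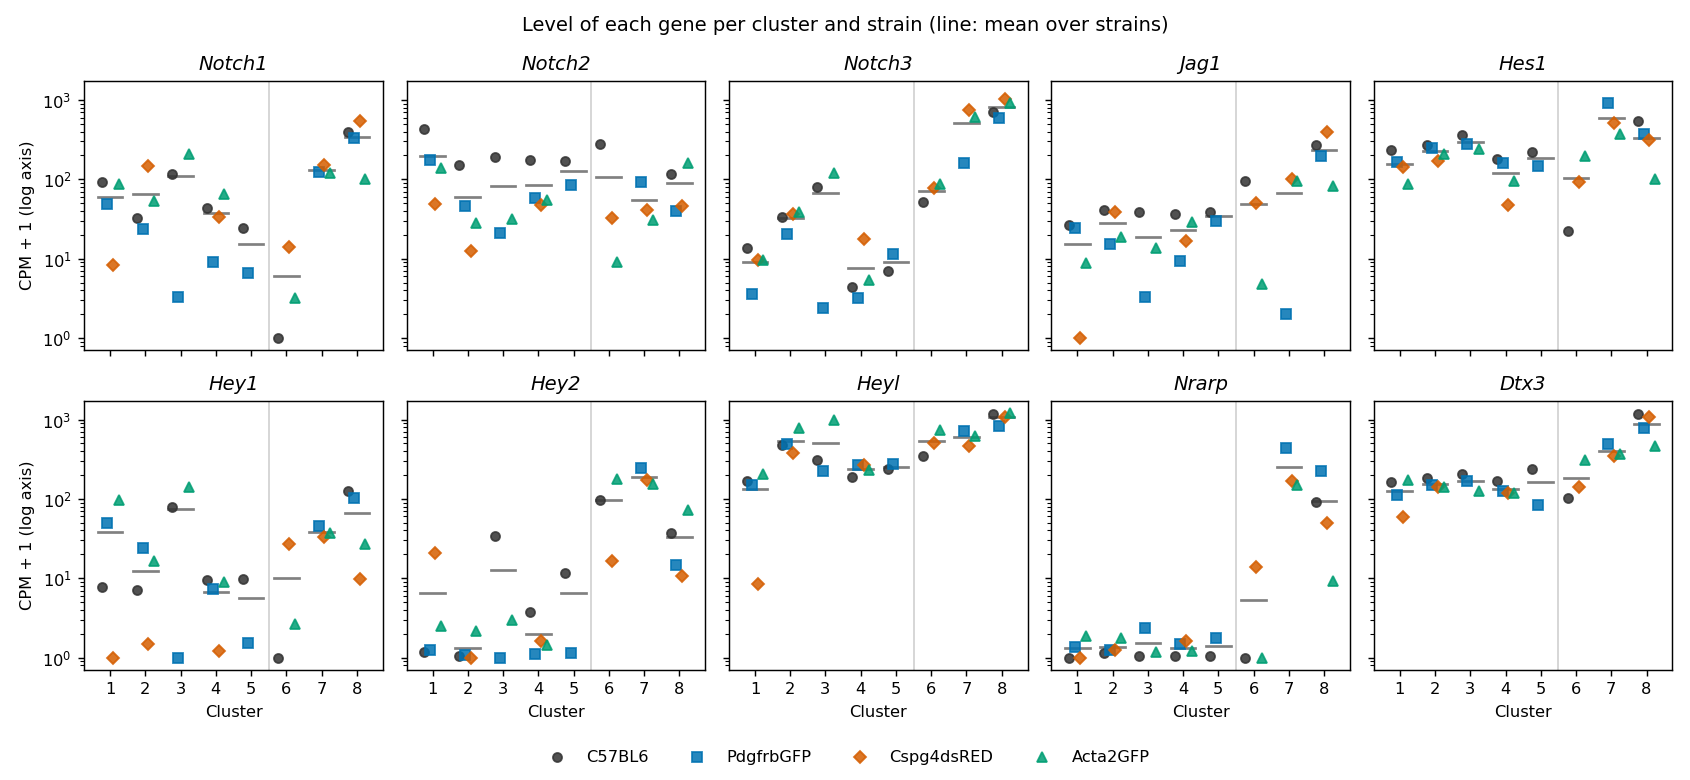
Level of each gene in each cluster and strain, as CPM + 1 on a log axis, with a grey line at the mean over strains and a vertical line between the fibroblast clusters 1 to 5 and the mural clusters 6 to 8. Notch3 has its highest mean in cluster 8 and its lowest mural mean in cluster 6, Hey2 and Nrarp have their highest mean in cluster 7, and Notch2 is spread over all clusters.

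Over the 8 clusters each gene had its own order of mean levels (CPM ± SD over 2 to 4 strains). Notch3 led in cluster 8 (812 ± 202.8), followed by cluster 7 (507 ± 307), cluster 6 (71.2 ± 18.1), cluster 3 (66.4 ± 59.9) and cluster 2 (31.3 ± 8.25), with clusters 1, 4 and 5 between 6.63 and 8.13 CPM. Clusters 8 and 7 overlapped, cluster 3 overlapped clusters 6 and 2, and no strain of cluster 6 reached the lowest of cluster 7. Jag1 went from 234.1 ± 130.2 in cluster 8 over 65.9 ± 56.2 in cluster 7 and 48.6 ± 44.6 in cluster 6 to means of 14.1 to 33.1 CPM in the fibroblast clusters, and each neighbour in this order overlapped the next. Notch1 led in cluster 8 (339.7 ± 183.99), then cluster 7 (130.7 ± 17.1) and cluster 3 (108.95 ± 103.5), which overlapped, and was lowest in cluster 6 (5.13 ± 7.10). Notch2 led in cluster 1 (197.3 ± 162.2) and was lowest in cluster 7 (53.5 ± 32.7), and its clusters overlapped.

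The targets had other orders than Notch3. Nrarp led in cluster 7 (251.3 ± 161.2), then cluster 8 (92.5 ± 92.9) and cluster 6 (4.35 ± 7.53), while the 5 fibroblast clusters had means of 0.305 to 0.537 CPM. Hey2 led in cluster 7 (188.9 ± 46.5), then cluster 6 (97.2 ± 81.97), cluster 8 (32.5 ± 28.3) and cluster 3 (11.6 ± 18.3), and clusters 7 and 6 overlapped. Heyl led in cluster 8 (1065 ± 173.6), and clusters 7, 2, 6 and 3 followed at means of 599, 534, 531 and 504 CPM, which did not differ beyond their spread. Hes1 led in cluster 7 (597 ± 277.97), then cluster 8 (333 ± 185.3) and cluster 3 (293 ± 60.7), which overlapped. Hey1 had its highest means in clusters 3 (72.6 ± 70.4) and 8 (65.03 ± 56.2). Dtx3 went from 876 ± 324 in cluster 8 and 399.8 ± 80.2 in cluster 7, which overlapped, to means of 125.5 to 182.3 CPM elsewhere.

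In single cells the genes were found in different shares of cells. Each cell was thinned to 50000 counts, leaving out 2 cells below that depth, and a cell was counted for a gene at 3 or more reads. Notch3 was counted in 82.1% of the cells of cluster 7, 56.4% of cluster 8, 8 of 39 of cluster 6 and 56 of 926 fibroblasts. Since the level in CPM was higher in cluster 8 than in cluster 7, no order is read from these shares. With any read before thinning, it was found in 95.8% of the cells of cluster 7, 80.1% of cluster 8, 61.5% of cluster 6 and 31.5% of fibroblasts. Nrarp was counted in 41 cells of cluster 7 (35.04%), in 27 of cluster 8 (13.8%) and in 0 of 926 fibroblasts, which allows a share of up to 0.324% at this cut. Before thinning, 51.7%, 30.6% and 6.80% of these cells had an Nrarp read. Hey2 was counted in 45 cells of cluster 7 (38.5%), in 10 of cluster 8 (5.13%) and in 7 of 39 of cluster 6, and 61.9%, 14.3% and 30.8% of these cells had a read before thinning. The strains were mixed differently in the clusters, Cspg4dsRED giving 63.6% of the cells of cluster 7 and PdgfrbGFP 60.7% of those of cluster 8, with medians of 4094 and 2782 genes per cell.

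Genes counted in the same cell were tallied in the mural clusters. In cluster 7, Notch3 was counted in 80.5% of the 41 cells with Nrarp and in 82.2% of the 45 with Hey2, beside 82.1% of all cells of the cluster. Hey2 and Nrarp occurred together in 17 cells of cluster 7 and in 0 cells of cluster 8, which had 10 cells with Hey2 and 27 with Nrarp. Of the 69 cells of cluster 8 with Jag1, 54 also had Notch3 (78.3%), beside 56.4% of all its cells (110 cells). In cluster 6, none of the 7 cells with Hey2 had Notch3, which 8 of its 39 cells had. At least 5 of the 10 genes were counted in 11.1%, 48.6% and 51.5% of the cells of cluster 7 in PdgfrbGFP, Cspg4dsRED and Acta2GFP, and in 11.9%, 55.2% and 53.3% of those of cluster 8. The share in cluster 8 of C57BL6 was 78.8%, and in cluster 6 it was 0 of 39 cells. Over all strains it was 47.01% in cluster 7 and 32.8% in cluster 8, an order that no strain present in both clusters with at least 3 cells showed, and 1.29% to 16.1% in the fibroblast clusters. Cells are not replicates and strains are pooled in the other counts of this kind, so they are descriptions.

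Among fibroblasts, cluster 1 was set against clusters 2 to 5. Of the 10 genes 8 were tested, since Hey2 and Nrarp were too low, and none passed edgeR or DESeq2, against 1.33% of 13201 genes. Heyl was the only one of these 8 with an unadjusted p under 0.05, as had 8.87% of all genes tested. It was lower in cluster 1 in 4 of 4 strains, at 165.6, 148.2, 7.40 and 203.1 CPM against 293, 322, 332 and 589 CPM in clusters 2 to 5, with no overlap (log2 fold change −1.50 ± 0.68, edgeR adjusted p = 0.554). Notch2 was higher in cluster 1 in 4 of 4 strains, at 427, 174.8, 48.1 and 139.1 CPM against 170.2, 64.2, 39.7 and 38.6 CPM, with overlap (log2 fold change 1.37 ± 0.68, edgeR adjusted p = 0.643). The Cspg4dsRED sum of cluster 1 came from 3 cells.

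Among clusters 2 to 5, compared with strain as a covariate, none of the 10 genes passed, against 46 of 16629 genes (0.277%), and Hes1 and Heyl had an unadjusted p under 0.05, as did 6.72% of all genes tested. Hes1 was highest in cluster 3, at 359, 277.98 and 240.4 CPM (C57BL6, PdgfrbGFP and Acta2GFP), and lowest in cluster 4, at 179.3, 161.4, 46.2 and 93.3 CPM, with a fitted log2 difference of 1.28 (edgeR adjusted p = 0.366). DESeq2 put Hes1 just past the threshold (adjusted p = 0.0495). Immediate early genes stood at 17178, 15888 and 9435 CPM in the same sums of cluster 3 and at 11591, 11069, 7227 and 7153 CPM in those of cluster 4. In cluster 5 they stood at 17471 and 18751 CPM (C57BL6 and PdgfrbGFP), where Hes1 stood at 144.4 to 220.7 CPM. The part of the immediate early genes in the Hes1 values was not tested. Heyl was highest in cluster 2, at 475, 495, 377 and 788 CPM, and lowest in cluster 4, at 186.3, 263.9, 267.5 and 231.7 CPM, with a fitted log2 difference of 1.10 (edgeR adjusted p = 0.667). Notch3 had its highest fibroblast mean in cluster 3, at 78.5, 1.39 and 119.3 CPM, where the PdgfrbGFP sum stood apart from the other two (edgeR adjusted p = 0.841). Pericyte markers, none at 0, stood at 222.2, 205.8 and 282.5 CPM in these sums against 19.7 to 119.5 CPM in the sums of clusters 2, 4 and 5, and smooth muscle markers at 75.2, 948 and 1447 CPM against 16.6 to 532 CPM. Their part in the Notch3 level was not tested.

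**Figure D4:**
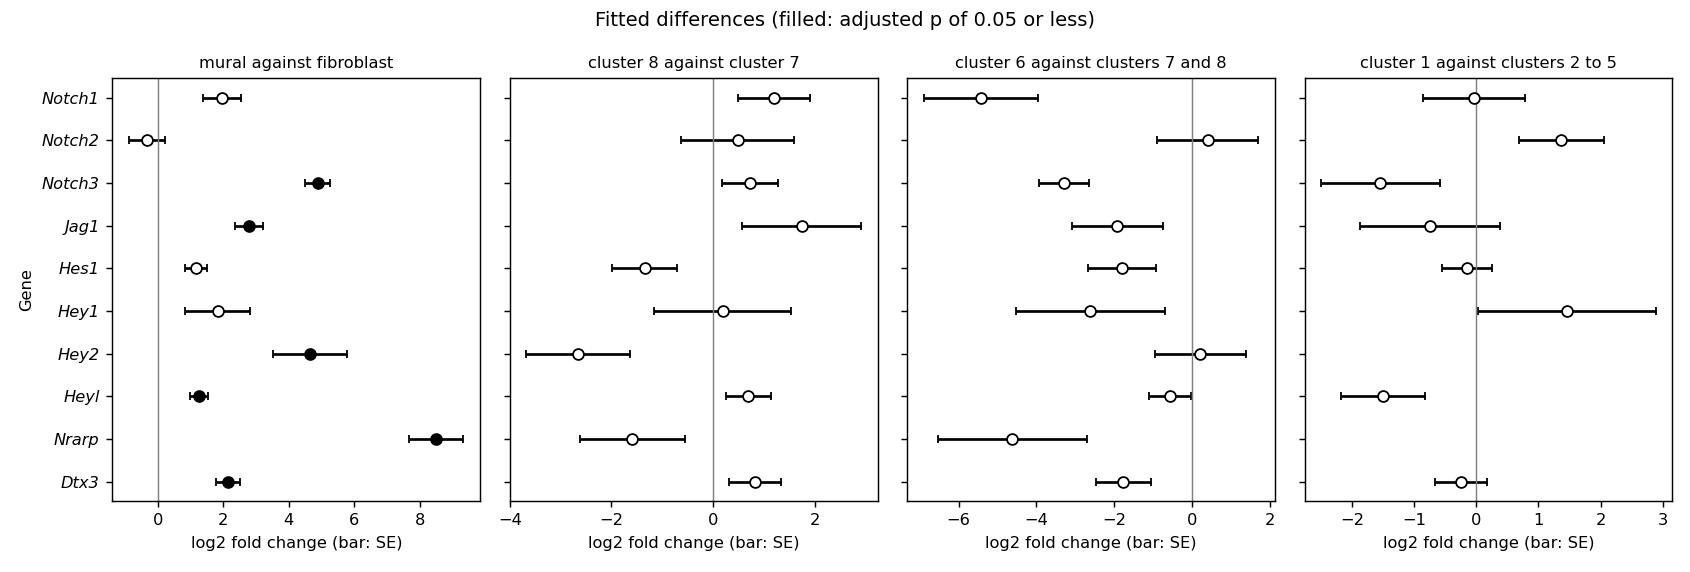
Fitted log2 fold changes of the members in the 4 comparisons of a pair of groups, with bars of 1 SE and filled symbols for an adjusted p of 0.05 or less. The 6 filled symbols are all in the comparison of mural cells with fibroblasts, and in cluster 6 against clusters 7 and 8 Notch3 and Notch1 lie far below 0 with open symbols.

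The fibroblast level of Notch3 differed between the plates of the C57BL6 strain. One plate (heart_203s) held 53.7% of the 544 C57BL6 fibroblasts together with 37 mural cells, and another (heart_316s) held 46.1% and 0 mural cells. Whether both plates were sorted with the same antibody is not given here, and the part of the sort was not tested. On heart_203s Notch3 stood at 34.8 CPM, and 92 fibroblasts had a read (31.5%, 95% Wilson interval 26.4% to 37.05%). On heart_316s it stood at 3.83 CPM, and 7 had a read (2.79%, interval 1.36% to 5.64%). These intervals, which do not overlap, cover counting error only. The median fibroblast had 340490 counts on the first plate and 182819 on the second, with medians of 4401 and 3012 genes. After thinning to 50000 counts, 10.96% and 1.20% of the fibroblasts of the 2 plates had 3 or more reads. Cluster 3 of heart_316s stood at 32.7 CPM of Notch3, from 3 of its 35 cells.

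The other members with reads on both plates were all lower on heart_316s and differed less in level. Hey1 stood at 23.4 CPM on heart_203s and 10.1 CPM on heart_316s, Notch1 at 57.8 and 29.8 CPM, and Jag1 at 43.8 and 27.1 CPM. The share of fibroblasts with a Notch1 read went the other way, from 43.8% to 61.8%. Heyl stood at 325 CPM on heart_203s and 233.04 CPM on heart_316s, with a read in 86.3% and 63.7% of fibroblasts. Hes1 stood at 259.3 and 217.97 CPM, Notch2 at 203.01 and 142.9 CPM, Dtx3 at 209.97 and 177.96 CPM and Hey2 at 9.55 and 7.84 CPM. Nrarp had 11 reads on heart_203s and 0 on heart_316s, which allows a share of cells of up to 1.20%. With only the cells of heart_203s standing for C57BL6, the log2 fold change of Notch3 between mural cells and fibroblasts was 4.69 (edgeR adjusted p = 0.0003).

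**Figure D5:**
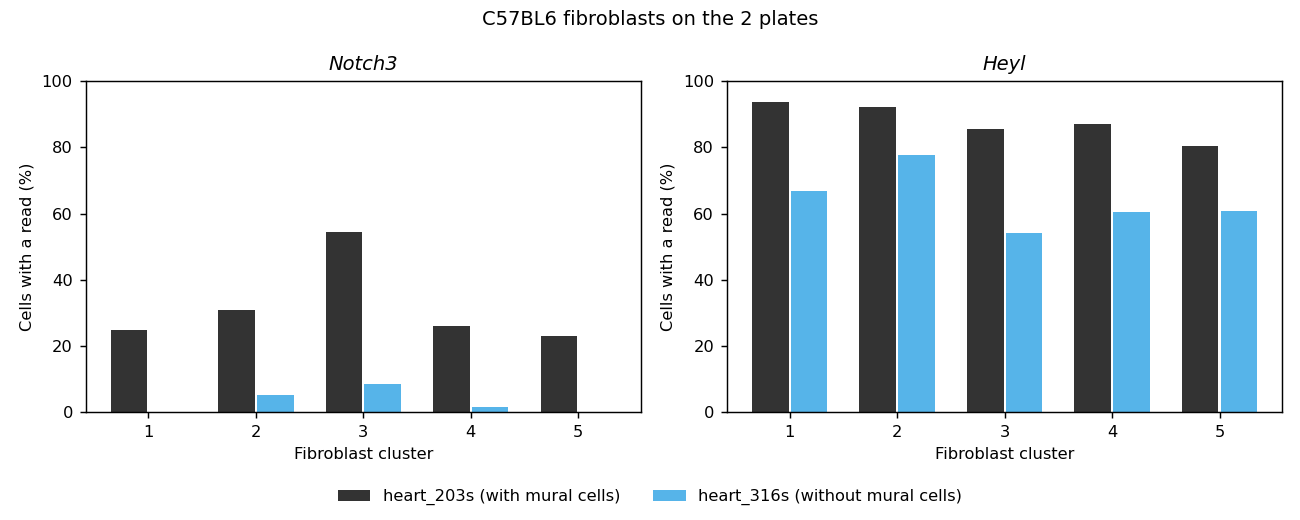
Share of C57BL6 fibroblasts with at least 1 read of Notch3 (left) and Heyl (right) in each fibroblast cluster, on the plate with mural cells (heart_203s) and the plate without (heart_316s). Notch3 was read in 22.99% to 54.5% of the cells of each cluster on the first plate and in 0 to 8.57% on the second, and Heyl in most cells of each cluster on both.

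On some plates the fibroblast reads of Notch3 were related to the place of the well. For each fibroblast well, its Notch3 count was set beside the Notch3 counts of those mural wells that shared its row or its column. Spearman's rho was 0.46 on the PdgfrbGFP plate, where 64.8% of 364 wells held fibroblasts, and 0.44 over 120 fibroblast wells of the Acta2GFP plate. It was 0.04 on heart_203s and 0.00 over 26 wells of the Cspg4dsRED plate. For Nrarp rho was 0.31 and 0.39 on the PdgfrbGFP and Acta2GFP plates, where 33 and 16 fibroblast wells had a read. For Hey2 it was 0.30 and 0.44, with a read in 7 and 27 wells, and for Heyl 0.04 and 0.04. Notch1 stood at 0.21 and 0.06 and Dtx3 at 0.19 and 0.12 on the same plates. On heart_203s and the Cspg4dsRED plate rho was 0.23 and −0.10 for Nrarp, 0.12 and 0.23 for Hey2, and 0.00 and 0.28 for Heyl. Over the genes called higher in mural cells the median rho was 0.23 and 0.24 on the PdgfrbGFP and Acta2GFP plates, against 0.07 and 0.07 over those called lower. The wells of a plate share 1 sequencing lane, these values are descriptions, and their part in the low fibroblast levels of Notch3, Hey2 and Nrarp was not tested.

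Other genes of the pathway, 53 in lists of receptors, ligands, receptor processing, trafficking, nuclear partners and further targets, did not pass edgeR in any of the comparisons. Between mural cells and fibroblasts 42 were tested, with a median log2 fold change of −0.21, and 5 were below 0.05 before adjustment, where 17% of all genes tested were. Those given here, named after their values were seen, were Neurl1b, a ligase that acts on ligands (log2 fold change 3.33), the Numb relative Numbl (−2.23) and the cell cycle inhibitor Cdkn1a (−1.41), with edgeR adjusted p of 0.26, 0.181 and 0.232. DESeq2 called 3 pathway genes other than the members in this comparison, Neurl1b and Numbl among them, and 12.7% of all genes tested. It called 1 between clusters 8 and 7, the Deltex relative Dtx4 (41.7 ± 29.95 CPM in cluster 8 and 0.634 ± 0.420 CPM in cluster 7), against 3.2% of all genes. It called 1 for cluster 6, the cyclin gene Ccnd1 (2.10 ± 1.07 CPM there, beside means of 288.6 ± 248.1 and 127.6 ± 76.9 CPM in clusters 7 and 8), against 2.81%. Rbpj, the DNA-binding partner of the Notch receptors, stood at 46.1 ± 23.2 CPM in mural cells and 45.2 ± 17.7 CPM in fibroblasts (log2 fold change 0.03, edgeR adjusted p = 0.987). Ligands other than Jag1 were low, with mean levels of 6.47 ± 8.39 CPM in mural cells and 0.536 ± 1.03 CPM in fibroblasts for Dll4, 3.77 ± 7.53 and 1.93 ± 1.77 CPM for Dll1, and 2.87 ± 5.74 and 0.0103 ± 0.0206 CPM for Jag2. Hes5 had 0 reads in both classes.

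By Pearson's r of log2(CPM + 1) over the 27 sums of a strain and a cluster, the genes most like Notch3 among 15162 were Itga7, an integrin of muscle cells (r = 0.87), Aoc3, an amine oxidase of smooth muscle (r = 0.84), Gcnt2 (r = 0.82), Ephx3 (r = 0.81) and Inpp4b (r = 0.81). Nrarp was most like Gm38287, with which it shares exon bases (r = 1.00), and then like Tcf15 (r = 0.95) and Inpp4b (r = 0.95). Hey2 was most like Trpv2 (r = 0.88), Fbxl22 (r = 0.87) and Aoc3 (r = 0.86). Dtx3 was most like Sept7 (r = 0.88), Inpp4b (r = 0.87) and Smagp (r = 0.87), and Heyl like Isca1 (r = 0.86), Pdlim1 (r = 0.80) and Rbpms (r = 0.79). Notch1 was most like Tanc1 (r = 0.81), Mb and F420014N23Rik (r = 0.80 each), and Jag1 like Gm9780 (r = 0.82), Rrn3 and Vasp (r = 0.81 each). Hes1 was most like Gm26631 (r = 0.81), Hmgb2 and Gm37758 (r = 0.79 each), Hey1 like Ncbp1 (r = 0.77), Thap12 (r = 0.76) and Nthl1 (r = 0.75), and Notch2 like Rpgrip1 (r = 0.76), Snrpg (r = 0.75) and Rpl35 (r = 0.73). The sums of a strain share their plate, and these values are descriptions.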

How the data were processed

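Single cells of mouse hearts were sorted into plates, made into Smart-seq2 libraries and sequenced on a HiSeq3000 as single reads. The authors trimmed the reads with Trim Galore, aligned them to GRCm38 with TopHat2 and counted them per gene with featureCounts, and the deposited table holds these raw counts for 1279 cells. The annotation release and strand setting are not given in the sources used here. The authors also filtered cells by counts, genes, spike-in share and marker genes, and made the clusters from these counts.

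Gene symbols were taken from the GRCm38 annotation for 46005 of 46517 genes. The 92 spike-ins (1.82% of counts) were left out. Counts were summed per strain and cluster or class where at least 3 cells were present, and tested with edgeR 4.0.16 (R 4.3.3) after TMM scaling and filterByExpr at a minimum count of 10, with DESeq2 1.42.0 among the alternatives. Levels, shares and correlations were computed with pandas 2.3.3, numpy 2.4.6 and scipy 1.17.1. The fits were also run on simulated sums with known changes, a fixed spread and no effect of strain or plate. That setting is simpler than these data, and its outcome is not reported here.

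The 10 members and the lists were chosen with earlier results of these data known. All members are named. Of the other pathway genes those that passed were to be named, and genes most like a member were taken by the highest r, 5 for Notch3 and 3 for each of the others. The comparison of plates, the counts per strain, the share of cells at 3 reads after thinning and the comparison by row and column were chosen after the data were seen.

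The sums of a strain share plates and sort. As a check of this pairing, the deviations of the paired sums from their group means correlated at r from 0.07 to 0.18 over the strains between mural cells and fibroblasts, 0.08 to 0.12 between clusters 8 and 7, 0.03 to 0.12 for cluster 6 and 0.06 to 0.16 for cluster 1. Alternatives were other size factors, no filter, DESeq2, strain as a replicate block, thinned cells, each strain left out, 1 plate for C57BL6 and leaving out clusters 1 and 6. Some genes of the pathway lists were counted and tested but are not reported here by name.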

Additional observations from a re-analysis of the deposited data

Results flagged for a closer look

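In 7 of 60 groups of 4 strains, 1 strain lay far from the other 3, measured by its gap to the nearest over the whole range (Dixon's test). Chance alone gives about 1 in 20 such groups if the values are independent and normally distributed. Levels in CPM need not be normal, and the cluster sums lie within the class sums, so this rate need not hold here.

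Among the mural sums, Nrarp in PdgfrbGFP stood at 243.5 CPM, with the others at 90.1 to 107.5 CPM. Among the fibroblast sums, Heyl in Acta2GFP stood at 504.8 CPM, with the others at 288.05 to 307.2 CPM.

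In cluster 4, Notch2 stood at 175.8 CPM in C57BL6 against 46.8 to 56.7 CPM, Dtx3 at 166.6 CPM in C57BL6 against 118.05 to 126.2 CPM, and Notch3 at 16.6 CPM in Cspg4dsRED against 2.16 to 4.44 CPM. Hey2 stood at 19.7 CPM in the 3 Cspg4dsRED cells of cluster 1 against 0.169 to 1.51 CPM, and at 1.15 CPM in Acta2GFP in cluster 2 against 0 to 0.0652 CPM.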

How the results depend on the processing

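Shares here are of the genes tested in each fit. Between mural cells and fibroblasts 5.93% passed (896 genes), 12.7% with DESeq2 (1926 genes), 4.81% with the strain as a replicate block (727 genes) and 2.66% to 3.91% with 1 strain left out (409 to 605 genes), the share falling by over 1.5 times whichever of the 4 strains was left out. The members kept their direction under all 11 alternatives, with 8 of 110 values losing a call and 6 gaining one, and Notch3, Jag1 and Nrarp passed under every one of the 11.

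Between clusters 8 and 7, 0.194% passed (23 genes), against 0.379% with DESeq2 size factors (45 genes), 0.855% without a filter, 3.2% with DESeq2 (380 genes), 0.691% with the replicate block (82 genes) and 0 to 0.987% with 1 strain left out. The 0 was without PdgfrbGFP, where 1514 genes had an unadjusted p under 0.05, the highest was without Acta2GFP, and without Cspg4dsRED it was 0.112%. Size factors of DESeq2 moved the median of all genes by −0.14 on the log2 scale. The log2 fold change of Notch2 turned to −0.019 with DESeq2 size factors and −0.019 with DESeq2, and ran from −0.89 to 1.63 with 1 strain left out. That of Hey1 turned to −0.26 in both of these and to −0.44 with the replicate block, and ran from −0.88 to 0.53 with 1 strain left out.

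For cluster 6, 0.033% passed (4 genes), against 0.418% without a filter (100 genes), 2.81% with DESeq2 (340 genes), 0.883% with the replicate block, 0.148% with thinned cells (15 genes) and 0 to 0.495% with 1 strain left out. The 0 was without Cspg4dsRED, where 1254 genes had an unadjusted p under 0.05, the highest was without Acta2GFP, and without C57BL6 it was 0.144%. Size factors of DESeq2 moved the median of all genes by 0.14. Notch2 turned to −0.62 with the replicate block and −0.42 with thinned cells, and ran from −1.47 to 0.85 with 1 strain left out. Hey2 turned to −0.056 and −0.70 in the same fits, and ran from −0.66 to 0.97.

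For cluster 1, 1.33% passed, against 5.22% with DESeq2 (689 genes), 0.742% with the replicate block (98 genes) and 0.201% to 0.748% with 1 strain left out, lowest without Acta2GFP, then 0.265% without C57BL6, 0.356% without PdgfrbGFP and 0.748% without Cspg4dsRED. Notch1 turned to 0.21 with the replicate block and 0.36 with thinned cells, and ran from −0.46 to 0.77 with 1 strain left out, while Hes1 ran from −0.26 to 0.0055 and Dtx3 from −0.50 to 0.0098. Among clusters 2 to 5, 0.277% passed (46 genes), 2.31% with DESeq2 (384 genes), 0.685% with thinned cells (92 genes), 0.301% with no replicate block (50 genes) and 0 to 0.332% with 1 strain left out. The 0 was without C57BL6 (606 genes at an unadjusted p under 0.05) and without PdgfrbGFP (724 genes), and without Acta2GFP it was 0.0482%. No value that changed sign passed the test in its fit, and the cause was not tested.

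Of 80 levels, 5 moved by more than the SD between strains when CPM were averaged over cells, Hey2 to 141.8 CPM in cluster 7 and 61.4 CPM in cluster 8, Notch1 to 105.7 CPM and Hey1 to 45.02 CPM in cluster 7, and Jag1 to 39.4 CPM in cluster 5. With 3 or 4 strains, and 3 cells in some sums, smaller differences were not detectable.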
